A study of Mus musculus with 4 samples.

Results

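The heat shock proteins and their co-chaperones were taken from the skin transcriptome by gene symbol: Hspa, Hspb, Hspd, Hspe, Hsph, Hsp90, Dnaja, Dnajb, Dnajc or Bag followed by a number or letter. Of 23203 gene symbols that stood on a single line in every file, 80 met the rule. By textbook location, 49 act in the cytosol or nucleus, 13 in or on the endoplasmic reticulum (ER) and 8 in mitochondria. The other 10 comprise 5 of vesicles and endosomes and 5 with no place assigned. The skin came from adult C57BL/6 mice. It was measured in 4 libraries, 1 for each pairing of genotype, wild type (WT) or Egr1 knockout (KO), with treatment, naive or HDM, a house dust mite cream. Per the labels, hair was removed between ear and neck and sodium dodecyl sulfate (SDS), a detergent that damages the barrier, was put on this skin and on both ears. The HDM groups then received 100 mg of cream, 2 times per week for 3 weeks, while the treatment label of both naive groups is SDS alone. Mice of both KO groups are labelled Egr1-/- on the C57BL/6 background, and genotypes were read by PCR. How many animals gave each library, and of what age in weeks, is not given in the sources used here.

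Chaperones hold unfolded proteins in solution and give them repeated chances to fold. HSP70 proteins bind short hydrophobic stretches in a cycle driven by ATP, J-domain (DNAJ) proteins deliver the client and start ATP hydrolysis, and exchange factors of the HSP110 and BAG families release ADP and the client. HSP90 completes the folding of kinases and receptors, small heat shock proteins hold aggregating clients, and each organelle keeps its own set. When unfolded proteins build up, heat shock factor 1 (Hsf1) binds heat shock elements in the cytosolic and mitochondrial genes, and the unfolded protein response acts on the ER genes through ER stress elements. In skin, HSP27 (Hspb1) is a protein of differentiating keratinocytes, and several small heat shock proteins are known from striated muscle.

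With 1 library per group, no comparison had a replicate check, and no p-value was computed. The deposited values are log2(x + 1), where x is a read number scaled between libraries, and read numbers were recovered from them. Whether these were whole was checked up to 200 reads, and large read numbers are approximate, since the values have 3 decimals. A fold change below is a ratio of x, and the range after it is its exact 95% Clopper-Pearson interval, which covers counting error only. Recovered reads summed to 9428717 to 10107315 per library over the 23203 symbols. A gene was called measured when the mean of its 4 log2 values was above 5.11, the median of all genes, and was called higher or lower from a 2-fold difference in deposited value. In all, 11600 genes and 67 of the 80 members were measured. Markers of basal and suprabasal keratinocytes were read in every library (14303 to 21298.5 reads per 1000000, or RPM, over 8 genes, none at 0). Singly these markers were not level: with HDM, 4 were higher and 4 lower in WT skin, and 3 higher and 5 lower in KO-labelled skin. The lowest log2 difference was -3.77 in WT and -15.5 in KO-labelled skin. The libraries differed in more than their labels. Transcripts of the Y-linked gene Ddx3y had 1925 and 2430 reads in the naive libraries and 1 read in each HDM library, and markers of salivary and lacrimal glands summed to 72487 and 8278 RPM in WT and KO naive skin and to 73.8 and 15.8 in HDM skin. The KO naive library had 0 reads for 336 genes with at least 50 reads in all others. Egr1 itself was not lower under the KO label: it stood at log2 11.02 and 11.53 in naive skin of WT and KO label and at 10.31 and 11.68 in HDM skin. Which part of Egr1 was disrupted is not given in the sources used here, so whether a tag at the 3′ end can check the label is not known. These libraries are called KO-labelled, and directions drawn from them rest on that label. Differences in sex or in the tissue sampled cannot be told apart from treatment in the HDM comparisons. In the comparisons of KO-labelled with WT skin, differences in the tissue sampled cannot be told apart from genotype. In bulk skin, fewer cells of a type cannot be told apart from less RNA per cell.

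The control sequences of these genes are shown first, since some mitochondrial, ER and heat-inducible members hold letters of known stress elements near their starts. Windows of 250 bases before to 50 after each start came from the RefSeq table of GRCm38.p6, in which 65 of the 80 members had a window, 83 windows in all. A heat shock element was searched as at least 3 alternating units, that is GAANNTTC and TTCNNGAA sharing a unit, both of which read the same on either strand. In the sequences that follow, read 5′ to 3′ on the gene's strand, capitals mark that element.
Hspd1: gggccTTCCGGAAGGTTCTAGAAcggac
Hspe1: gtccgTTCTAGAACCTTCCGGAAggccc
Dnajb6: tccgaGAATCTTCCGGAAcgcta
Hsph1: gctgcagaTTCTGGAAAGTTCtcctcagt
The first pair is a single site, at chr1:55088054-55088081. In GENCODE M21, Hspd1 (chr1:55077835-55088243, minus strand) and Hspe1 (chr1:55088132-55091307, plus strand) stand head to head, and the site lies inside the Hspd1 span. Counted from the RefSeq starts, which differ from the ends of these spans, the 4 units lie 144 to 127 bases before the Hspd1 start and 89 to 72 before the Hspe1 start. The Dnajb6 stretch is chr5:29735847-29735869 on the plus strand and that of Hsph1 chr5:149636280-149636308 on the minus strand, 15 to 27 bases after the nearer of its starts. In GENCODE M21, the Hspd1, Dnajb6 and Hsph1 stretches overlap a UTR exon of some transcript of the gene itself. Such an element was found in 4 of the 65 genes (6.15%), against 0.662% of all genes of the table, and in 7.23% of the member windows, against 0.603% of all 32851. The member windows rest on 3 sites, since Hspd1 and Hspe1 share theirs and those of Dnajb6 and Hsph1 each fall in 2 windows. No match says only that these letters were not in the window.

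An ER stress element was searched on both strands as CCAAT, any 9 bases, CCACG, or as ATTGG, any 1 base, CCACG. Capitals mark it in the following stretches. In Hsp90b1 the second site runs on the opposite strand, so that its letters appear as the reverse complement.
Hspa5: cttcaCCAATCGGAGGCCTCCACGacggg
Dnajc3: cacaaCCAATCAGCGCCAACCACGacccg
Hsp90b1: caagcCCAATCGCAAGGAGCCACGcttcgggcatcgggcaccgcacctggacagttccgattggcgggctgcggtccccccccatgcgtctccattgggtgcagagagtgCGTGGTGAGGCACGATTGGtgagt
These are chr2:34772020-34772048 (plus strand), chr14:118937822-118937850 (plus strand) and chr10:86705528-86705661 (minus strand). The Hspa5 stretch overlaps a UTR exon of Hspa5 in GENCODE M21, and the remaining stretches overlap no transcript there. Dnajb11 held the shorter form 7 to 17 bases after its start. The element was thus found in 4 member genes, all of the ER lumen, and in 4.82% of member windows against 0.155% of all windows.

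**Figure D1:**
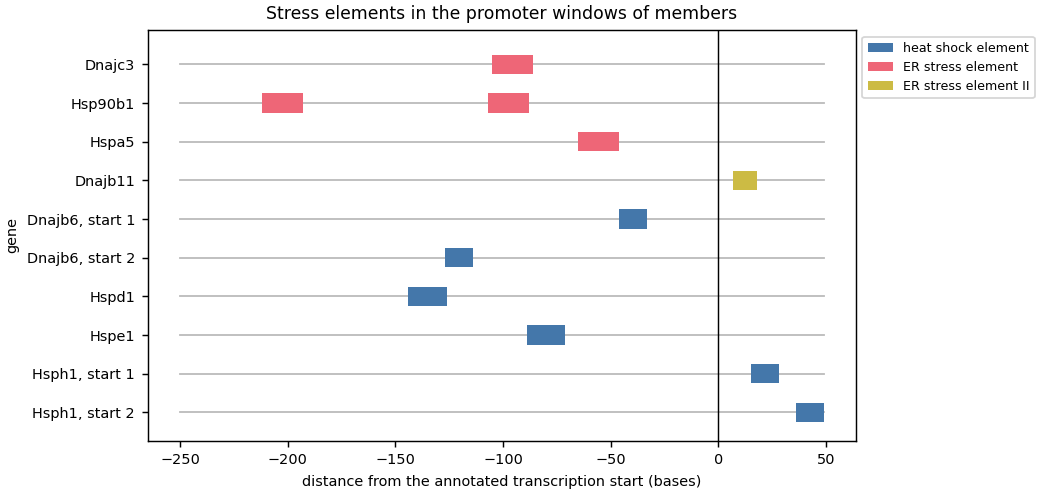
Each line is a promoter window of a member gene, from 250 bases before to 50 after its annotated start (x axis, distance in bases), and bars are heat shock elements, ER stress elements or the shorter ER stress element II. The ER stress elements of Hspa5, Hsp90b1 and Dnajc3 lie before the start, while the elements of Hsph1 and Dnajb11 lie after it.

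By the 2-fold rule, 9 measured members were higher in HDM-treated than in naive WT skin and 6 were lower. Those higher were Dnajb12, Hspb1, Bag1, Hspa14, Bag2, Dnajc15, Hspa5, Hspd1 and Hspa9. Those lower were Hspa12a, Hspb3, Dnajc27, Hspb8, Hspa2 and Dnajb3. These 9 and 6 are 13.4% and 8.96% of the members, where 14.5% of all measured genes were higher and 12.7% lower, so the members were not called more often than other genes. The median log2 difference of the members was 0.21, beside 0.03 for all genes. By compartment, the medians were 0.66 in mitochondria (3 of 8 higher, 0 lower), 0.43 in the ER (2 of 12 higher, 0 lower) and 0.13 in the cytosol and nucleus (4 of 42 higher, 6 lower).

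In KO-labelled skin, 13 members were higher in the HDM library and 9 lower, or 19.4% and 13.4%, beside 21.7% and 18.2% of all measured genes. The median was -0.003 over members and 0.06 over all genes. Mitochondrial members again had the highest compartment median, 0.57 (3 of 8 higher, 0 lower), with 0.08 in the ER (1 of 12 higher, 1 lower) and -0.03 in the cytosol and nucleus (8 of 42 higher, 8 lower). This comparison rests on the KO naive library, in which 11 of the 80 members (13.75%) had 0 reads and 5 of these had reads in each other library. Members with a read were 75 in WT naive, 69 in KO naive, 76 in WT HDM and 75 in KO HDM skin. Of all 23203 genes, 15524, 12857, 16512 and 16175 had a read in the same order. With WT naive in place of KO naive skin, the KO-labelled HDM library had 8 members higher and 5 lower, beside 12.5% and 11.4% of all measured genes. The median was then 0.27 over members and 0.04 over all genes. Of the 22 members called against KO naive skin, 3 then turned direction in log2 difference: Hspa2 (4.69 to -0.12), Hspa1l (-1.25 to 0.57) and Dnajb9 (-1.10 to 0.003). Of the 13 members higher against KO naive skin, 5 were then still higher by 2-fold (Bag2, Hspe1, Hsph1, Hspb1 and Hspd1).

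**Figure D2:**
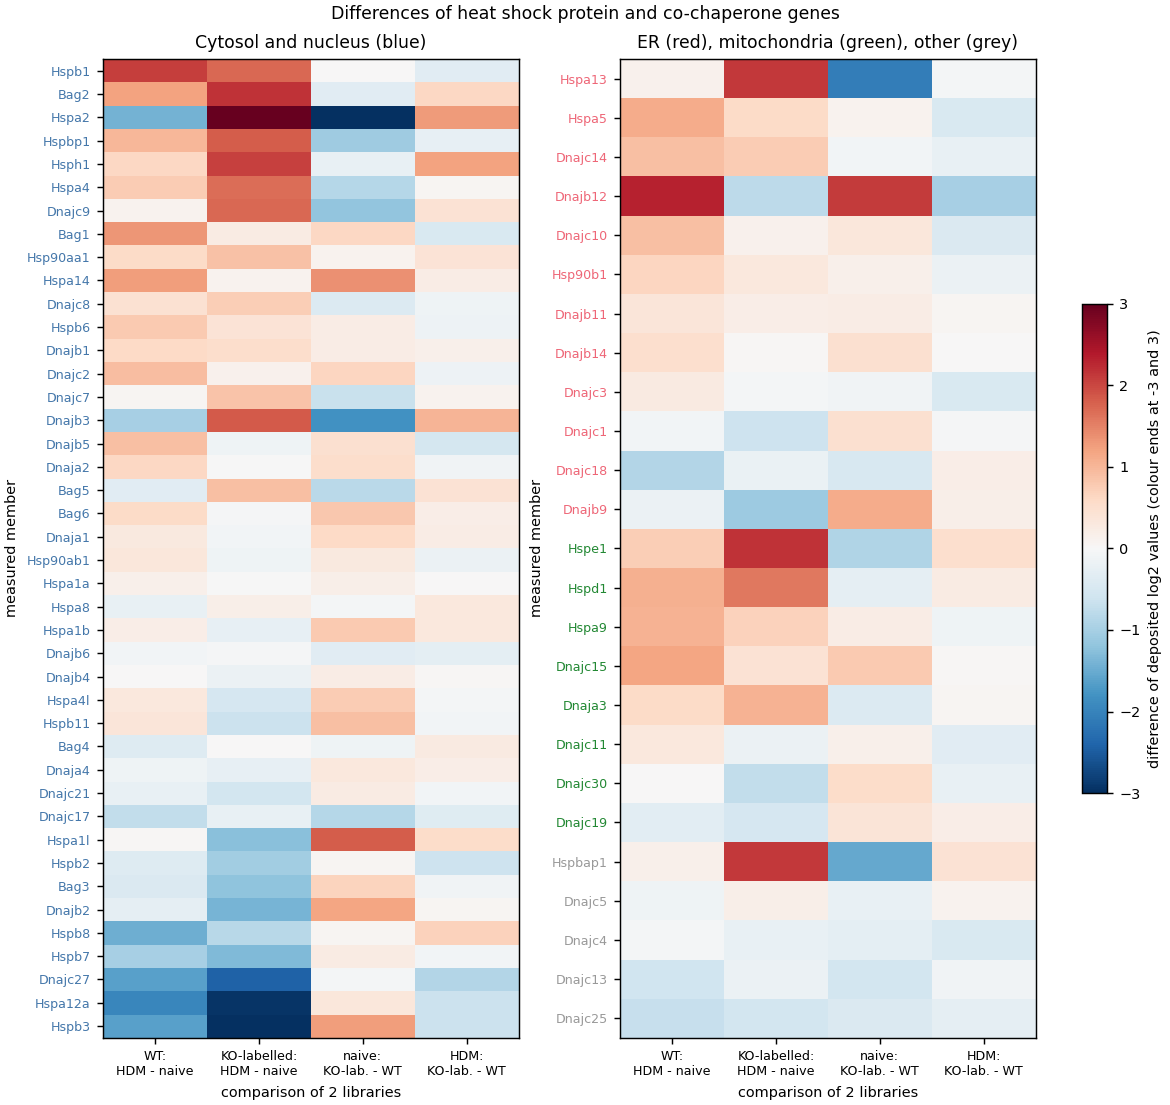
Each row is 1 of the 67 measured members and each column 1 comparison of 2 libraries, coloured by the difference of deposited log2 values (red higher, blue lower, colours ending at -3 and 3). Hspb1, Hspd1 and Bag2 are red in both HDM columns, Hspb3, Hspa12a and Dnajc27 are blue in both, and Hspa2 changes colour between them.

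The mitochondrial matrix holds the HSP60 chaperonin Hspd1, its HSP10 lid Hspe1 and the HSP70 of the matrix, Hspa9. Hspd1 had 1220 reads in WT naive, 1135 in KO naive, 2487 in WT HDM and 3365 in KO HDM, at log2 levels of 10.33, 10.05, 11.39 and 11.63. Both HDM libraries lay above both naive libraries. Hspd1 was 2.08-fold (1.94 to 2.23) higher with HDM in WT skin and 2.97-fold (2.78 to 3.18) in KO-labelled skin. Hspe1, its head-to-head neighbour on the other strand, shares exon bases with it where the genes start, and counting was not stated to use strand. Hspe1 had 678, 407, 1115 and 1820 reads in the same order of libraries. It was 1.68-fold (1.52 to 1.85) higher in WT skin, short of 2-fold, and 4.49-fold (4.03 to 5.01) higher in KO-labelled skin. The ratio of Hspd1 to Hspe1 reads within a library was 1.80, 2.79, 2.23 and 1.85, highest in KO naive skin, where Hspe1 had its lowest count.

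Hspa9 stood at log2 11.15 in WT naive, 11.36 in KO naive, 12.19 in WT HDM and 12.05 in KO HDM, so that both HDM libraries were again the higher. The fold was 2.05 (1.95 to 2.16) in WT and 1.61 (1.54 to 1.69) in KO-labelled skin. Its partner Dnaja3, a J-domain protein of the matrix, was 1.49-fold (1.18 to 1.88) and 2.07-fold (1.64 to 2.63) higher. Dnaja3 shares exon bases with Vasn on the same strand, and reads there cannot be assigned with certainty. Dnajc15, a J-domain protein of the import motor at the inner membrane, had 124 reads in WT naive, 240 in KO naive, 278 in WT HDM and 326 in KO HDM. Only the WT comparison passed 2-fold for Dnajc15 (2.29, 1.85 to 2.85), and the fold in KO-labelled skin was 1.36 (1.15 to 1.62), with more reads in KO naive than in WT naive skin. Dnajc19, of the same motor, went the other way, with 485, 717, 383 and 505 reads and folds of 1.24 (1.08 to 1.42) and 1.42 (1.26 to 1.59) lower with HDM. Dnajc30 and Dnajc11 stayed within 2-fold. Summed over the 8 genes, mitochondrial chaperone reads were 553.7 and 625.5 RPM in WT and KO naive skin and 990.6 and 1118 in HDM skin. Markers of wound keratinocytes moved with the HDM label as well, from 416 and 160 to 44505 and 36046 RPM over 8 genes, 3 of them (S100a8, S100a9 and Sprr2d) at 0 in KO naive skin. Hair shaft and inner root sheath markers went from 27.7 and 47.3 to 2326 and 5990 RPM over 8 genes, 5 of them at 0 in KO naive skin. The sum of 6 fibroblast markers was lower in both HDM libraries. Singly, 1 of them was higher and 2 were lower by 2-fold in WT skin, and 0 and 4 in KO-labelled skin. The part of these cell types in the mitochondrial result was not tested.

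The stress-inducible HSP70 genes stayed within 2-fold in both HDM comparisons. Hspa1a, a classical heat-induced HSP70, stood at log2 9.03 in WT naive, 9.20 in KO naive, 9.18 in WT HDM and 9.19 in KO HDM. The HDM to naive ratio of Hspa1a was 1.11 (0.98 to 1.26) in WT skin, and the KO-labelled libraries held 625 and 622 reads. Its near-identical neighbour Hspa1b had 580, 1127, 657 and 942 reads, highest in KO naive skin, and reads may be split between the copies with uncertainty. The constitutive HSP70 Hspa8 stood at 12.25, 12.18, 12.04 and 12.35. Its folds were 1.16 (1.11 to 1.21) lower with HDM in WT and 1.13 (1.08 to 1.17) higher in KO-labelled skin. Of cytosolic HSP90, the inducible form Hsp90aa1 was 1.5-fold (1.44 to 1.56) and 1.83-fold (1.77 to 1.89) higher with HDM. The constitutive form Hsp90ab1 stood at 14.24, 14.53, 14.58 and 14.41, with no common direction.

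Several other relatives of HSP70 passed 2-fold. Hspa2, an HSP70 best known from the testis, had 522 reads in WT naive, 20 in KO naive, 192 in WT HDM and 540 in KO HDM. The KO naive library stood far below the other 3, and the 2 HDM comparisons went in opposite directions: 2.66-fold (2.25 to 3.16) lower in WT skin and 27.1-fold (17.4 to 44.7) higher in KO-labelled skin. Hspa12a, an atypical member of the family, had 264, 379, 66 and 48 reads, with both HDM libraries low. It was 3.92-fold (2.98 to 5.21) and 7.87-fold (5.82 to 10.9) lower. Hspa14, the HSP70 of the ribosome-associated complex, was low only in WT naive skin, with 185 reads against 538, 431 and 582, and Dnajc2, the J-domain partner in that complex, had 366 there against 647, 682 and 708. Hspa14 was thus 2.38-fold (2.00 to 2.84) higher with HDM in WT skin and 1.09-fold (0.964 to 1.22) in KO-labelled skin. Hspa1l was high only in KO naive skin, at 106 reads against 26, 26 and 44.

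Exchange factors were the cytosolic class with the highest medians under HDM, 0.59 in WT skin (2 of 10 higher, 0 lower) and 0.58 in KO-labelled skin (4 of 10 higher, 1 lower). Of all measured genes, 14.5% were higher and 12.7% lower in WT skin, and 21.7% and 18.2% in KO-labelled skin. Bag2, which acts on HSP70 and on the ubiquitin ligase CHIP, had 34 reads in WT naive, 30 in KO naive, 78 in WT HDM and 139 in KO HDM. Bag2 was 2.34-fold (1.55 to 3.61) and 4.65-fold (3.11 to 7.15) higher with HDM. The HSP110 gene Hsph1, whose heat shock element is printed above, had 154, 150, 232 and 620 reads. The KO-labelled HDM library stood apart for Hsph1, 4.15-fold (3.46 to 4.99) above KO naive and 2.33-fold (2.00 to 2.72) above WT HDM, while WT skin differed by 1.54-fold (1.25 to 1.90). The other HSP110 genes split. Hspa4 was 1.70-fold (1.60 to 1.80) and 3.19-fold (2.98 to 3.41) higher, whereas Hspa4l was 1.26-fold higher (0.986 to 1.60) in WT and 1.41-fold lower (1.16 to 1.73) in KO-labelled skin.

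Hspbp1, a nucleotide exchange factor for HSP70, had 406 reads in WT naive, 217 in KO naive, 789 in WT HDM and 761 in KO HDM, and both HDM libraries held more. The WT difference of Hspbp1 was just inside 2-fold (1.98, 1.76 to 2.24) and the KO-labelled one outside it (3.52, 3.02 to 4.11). Bag1, which links HSP70 to the proteasome, had 491, 848, 1211 and 1008 reads, with folds of 2.52 (2.27 to 2.80) and 1.19 (1.09 to 1.31). Bag3, the partner of Hspb8 in chaperone-assisted autophagy, was lower instead: it had 1165, 2104, 851 and 913 reads, was 1.34-fold (1.23 to 1.47) lower with HDM in WT skin and 2.30-fold (2.12 to 2.49) lower in KO-labelled skin.

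Of the 7 measured small heat shock proteins, 1 was higher and 2 were lower by 2-fold with HDM in WT skin, and 1 was higher and 3 were lower in KO-labelled skin. These are 14.3% and 28.6% in WT skin, beside 14.5% and 12.7% of all measured genes. In KO-labelled skin they are 14.3% and 42.9%, beside 21.7% and 18.2%. Hspb1 (chr5:135887919-135889563), HSP27, had 870 reads in WT naive, 983 in KO naive, 3570 in WT HDM and 3217 in KO HDM. Both HDM libraries lay well above both naive ones, which were nearly level with each other. The folds of Hspb1 were 4.19 (3.89 to 4.52) in WT and 3.28 (3.06 to 3.53) in KO-labelled skin, while Hspb6 was 1.72-fold (1.64 to 1.80) and 1.33-fold (1.27 to 1.38) higher.

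Hspb3, known from muscle, had 137, 368, 43 and 31 reads and was 3.12-fold (2.20 to 4.51) lower in WT and 11.8-fold (8.19 to 17.7) lower in KO-labelled skin. Hspb8 had 7998, 9347, 2836 and 5244 reads, or 2.76-fold (2.65 to 2.88) and 1.78-fold (1.72 to 1.84) fewer with HDM. Hspb7 was 2.00-fold lower (1.75 to 2.28) in WT skin, at a deposited difference just short of the size rule, and 2.5-fold lower (2.22 to 2.84) in KO-labelled skin. Hspb2 had 68, 80, 51 and 38 reads. It shares exon bases with Cryab on the opposite strand, which had 802, 1908, 1252 and 1392 reads. Counting was not stated to use strand, so reads there cannot be assigned with certainty. The HDM libraries held fewer Hspb2 reads, with folds of 1.31 (0.895 to 1.92) in WT skin, an interval that includes no change, and 2.10 (1.41 to 3.17) in KO-labelled skin. Hspb11, a protein of ciliary transport, was 1.29-fold higher (0.874 to 1.92) in WT and 1.56-fold lower (1.14 to 2.16) in KO-labelled skin. The 14 skeletal muscle markers summed to 3753 RPM in WT naive, 5889 in KO naive, 3638 in WT HDM and 4880 in KO HDM, none at 0. Under HDM, 3 of these markers were lower and 1 higher than in naive WT skin, and 4 were lower and 1 higher than in KO naive skin. Summed fibroblast markers (6 genes, none at 0) went from 18918 and 40194 RPM in WT and KO naive skin to 6949 and 5344 in HDM skin. By the 2-fold rule, 1 of the 6 was higher and 2 lower in WT, and 0 and 4 in KO-labelled skin. Adipocyte markers (6 genes, with Plin1 at 0 in KO naive skin) went from 1019 and 3786 to 457 and 1013 RPM. The part of these cell types in the small heat shock values was not tested.

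Among the 16 measured J-domain proteins of cytosol and nucleus, 0 were higher and 2 lower with HDM in WT skin, and in KO-labelled skin the numbers were 2 and 2. The 2 lower in WT skin are 12.5%, beside 12.7% of all measured genes. In KO-labelled skin 12.5% were higher and 12.5% lower, beside 21.7% and 18.2%. Dnajb1, the main partner of inducible HSP70, had 361 reads in WT naive, 478 in KO naive, 537 in WT HDM and 688 in KO HDM, with folds of 1.52 (1.33 to 1.74) and 1.44 (1.28 to 1.63). Dnaja1, the farnesylated partner of Hspa8, was 1.23-fold (1.13 to 1.34) higher and 1.05-fold (0.984 to 1.13) lower. These partners of HSP70 thus stayed within 2-fold. Dnajc27, a small GTPase with a J domain, was low in both HDM libraries, with 165 and 178 reads in naive and 52 and 32 in HDM skin of WT and KO label, or 3.11-fold (2.26 to 4.33) and 5.54-fold (3.79 to 8.35) lower. Dnajb3 had 83 reads in WT naive, 26 in KO naive, 40 in WT HDM and 95 in KO HDM, 2.03-fold (1.38 to 3.04) lower with HDM in WT and 3.67-fold (2.35 to 5.90) higher in KO-labelled skin. A further pair of genes stood apart in KO naive skin: the histone chaperone Dnajc9 was low there (127 reads against 258, 273 and 423), and Dnajb2, a neuronal J-domain protein that binds ubiquitin, was high (715 against 279, 225 and 270).

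**Figure D3:**
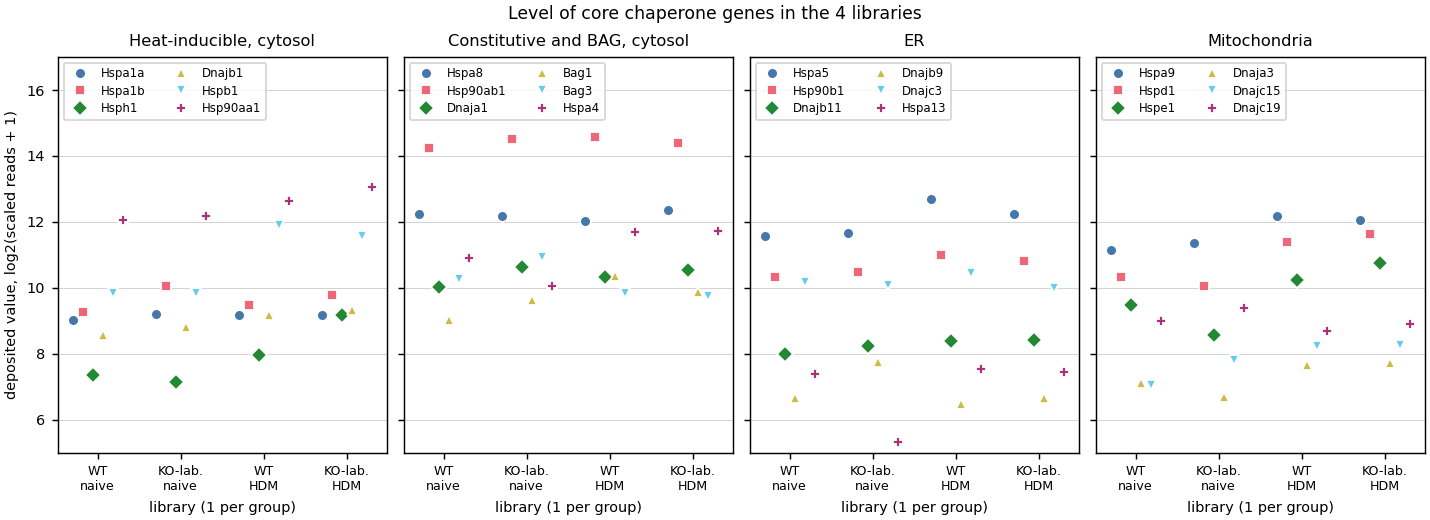
Deposited log2 levels (y axis) of 24 members in the 4 libraries (x axis, 1 library per group), in 4 panels by role and compartment, with markers of a library set side by side. Hspb1 and Hspd1 stand higher in both HDM libraries than in both naive ones, Hspa1a stays between 9.03 and 9.20, and Hspa13 dips to 5.33 in KO naive skin.

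In the ER lumen, Hspa5, the HSP70 known as BiP, had 2879 reads in WT naive, 3483 in KO naive, 6134 in WT HDM and 5168 in KO HDM. Both HDM libraries were above both naive ones, with folds of 2.17 (2.08 to 2.27) in WT and 1.49 (1.43 to 1.55) in KO-labelled skin. Hsp90b1, the HSP90 of the ER, was 1.56-fold (1.45 to 1.68) and 1.24-fold (1.16 to 1.33) higher. The other genes with an ER stress element in their window differed less: Dnajc3, an inhibitor of the kinase PERK, was 1.21-fold (1.12 to 1.31) higher in WT and 1.05-fold (0.962 to 1.14) lower in KO-labelled skin. For Dnajb11, a cofactor of BiP, the folds were 1.29 (1.09 to 1.54) and 1.15 (0.988 to 1.34). Dnajc10, a disulfide reductase, was 1.87-fold (1.60 to 2.19) and 1.09-fold (0.944 to 1.27) higher.

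Dnajb9, a cofactor of BiP that restrains the stress sensor IRE1, did not move with Hspa5: it had 94 reads in WT naive, 229 in KO naive, 82 in WT HDM and 106 in KO HDM, and so stood high only in KO naive skin. Its fold was 2.15 (1.70 to 2.74) lower with HDM in KO-labelled skin. Hspa13 had 159, 42, 170 and 186 reads, low only in KO naive skin, from which the KO-labelled HDM library differed 4.44-fold (3.16 to 6.37). Dnajb12, an ER membrane protein that works with Hspa8 in disposal of membrane proteins, had 21, 105, 105 and 60 reads. The WT naive library was the low one for Dnajb12, and the fold with HDM was 5.10 (3.17 to 8.59) higher in WT and 1.74 (1.26 to 2.44) lower in KO-labelled skin. Dnajc14, at 1.86-fold (1.66 to 2.09) and 1.70-fold (1.52 to 1.90) higher, shares exon bases with Sarnp, Ormdl2 and Tmem198b, and its reads cannot be assigned with certainty. Summed ER members gave 818.5, 980.8, 1341 and 1148 RPM in the order above. The sums of gland markers, given above, were higher in naive than in HDM skin, with 1, 4, 1 and 8 of 12 genes at 0 in the order above. Singly, of 8 measured gland markers, 0 were higher and 7 lower with HDM in WT skin. In KO-labelled skin 1 was higher (log2 difference 6.08) and 7 were lower. Their part in the ER result was not tested.

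The 2 HDM comparisons share no library. Higher by 2-fold in both were 3 members, Bag2, Hspd1 and Hspb1, which is 33.3% of the 9 higher in WT and 23.1% of the 13 higher in KO-labelled skin. For all measured genes the shares were 48.8% and 32.5%. Lower in both were Dnajc27, Hspb3 and Hspa12a, or 50.0% and 33.3% of the members lower, beside 52.6% and 36.8% for all genes. Hspa2 and Dnajb3 passed 2-fold in opposite directions, which is 2.99% of the members, beside 204 of all measured genes (1.76%). The sign of the difference was the same for 46 of the 67 members (68.7%) and for 66.3% of all measured genes. Whether the HDM difference itself differed between genotypes could not be tested with 1 library per group.

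**Figure D4:**
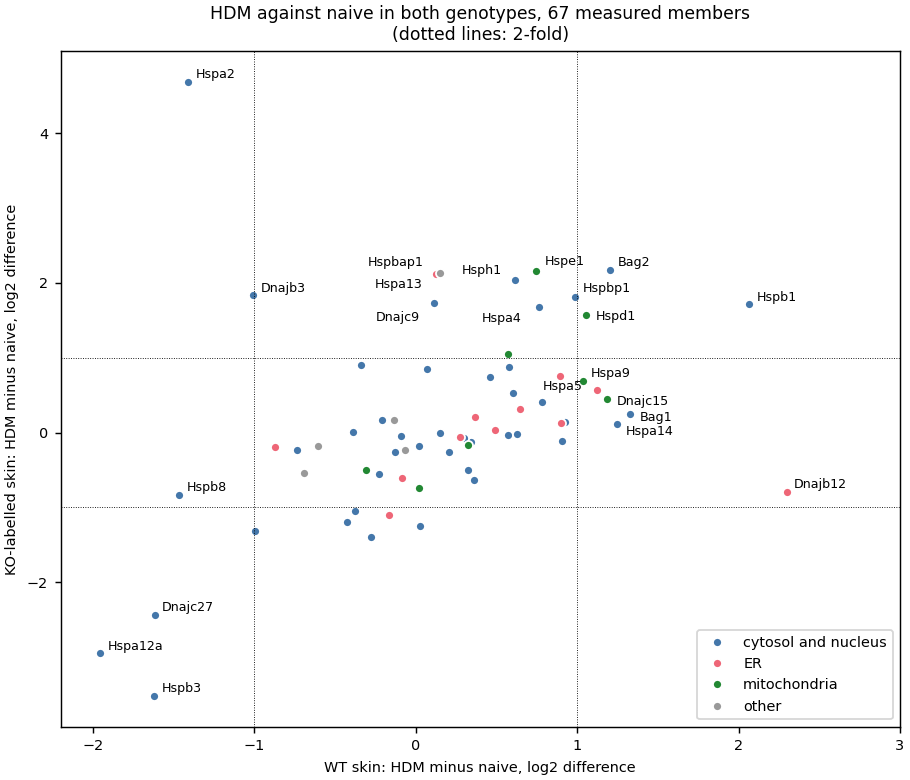
Each point is 1 of the 67 measured members, with its HDM minus naive difference in deposited log2 value in WT skin (x axis) and in KO-labelled skin (y axis), coloured by compartment, and dotted lines at 2-fold. Bag2, Hspd1 and Hspb1 lie beyond the lines at upper right, Dnajc27, Hspb3 and Hspa12a at lower left, and Hspa2 and Dnajb3 at upper left.

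KO-labelled naive skin had 6 members higher and 6 lower than WT naive skin, 8.96% each, beside 13.6% and 17.1% of all measured genes. The median was 0.15 over members and -0.03 over all genes. In RPM, a scaling that moves the median of all genes in this comparison by 0.12, the members' median was 0.28. Higher were Dnajb12 (4.43-fold, 2.76 to 7.46), Hspa1l (3.61-fold, 2.34 to 5.78), Hspa14 (2.58-fold, 2.18 to 3.06), Hspb3 (2.38-fold, 1.95 to 2.92), Dnajb2 (2.27-fold, 1.98 to 2.62) and Dnajb9 (2.16-fold, 1.69 to 2.78). Lower were Hspa2 (29.4-fold, 18.9 to 48.6), Hspa13 (4.27-fold, 3.02 to 6.15), Dnajb3 (3.60-fold, 2.29 to 5.83), Hspbap1 (2.99-fold, 1.88 to 4.90), Dnajc9 (2.29-fold, 1.85 to 2.86) and Hspbp1 (2.11-fold, 1.79 to 2.5). All 6 of the lower members had their lowest reads of the 4 libraries in KO naive skin, which their selection on that library partly builds in. Of the higher members, Hspa1l, Hspb3, Dnajb2 and Dnajb9 had their highest reads there. The KO naive library is the one with 336 zeros named above, and this comparison shares it with the HDM comparison in KO-labelled skin. None of the mitochondrial members passed 2-fold here. Cell type markers also differed between the naive libraries. In WT and KO-labelled skin, fibroblast markers summed to 18918 and 40194 RPM, adipocyte markers to 1019 and 3786, and gland markers to 72487 and 8278. Skeletal muscle markers summed to 3753 and 5889 RPM, with 2 of 14 higher and 0 lower in KO-labelled skin. Wound keratinocyte markers had 1 of 8 higher and 5 lower there. Hair shaft and inner root sheath markers had 2 of 8 higher and 5 lower. The part of these cell types in the members' differences was not tested.

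With HDM, KO-labelled and WT skin differed least: 3 members were higher in KO-labelled skin and 0 lower, or 4.48% and 0%, beside 3.06% and 4.66% of all measured genes. In RPM, 449 genes were higher and 448 lower in place of 355 and 540, and the members stayed at 3 and 0. The 3 members were Hspa2 (2.45-fold, 2.07 to 2.9), Hsph1 (2.33-fold, 2.00 to 2.72) and Dnajb3 (2.07-fold, 1.42 to 3.07). The members' median was -0.04, and 0.06 in RPM, so no direction is given for the set. Hspa5 was 1.36-fold (1.31 to 1.41) and Bag1 1.38-fold (1.27 to 1.5) lower in KO-labelled HDM skin, while Hspe1 was 1.42-fold (1.32 to 1.53) and Hsp90aa1 1.32-fold (1.28 to 1.36) higher, all within the size rule. Cell type markers also differed between the HDM libraries of WT and KO label. Cartilage markers (7 genes, 1 and 3 of them at 0) summed to 1506 and 6.23 RPM. Hair shaft and inner root sheath markers summed to 2326 and 5990 RPM, and adipocyte markers to 457 and 1013. Of 8 basal and suprabasal keratinocyte markers, 1 was higher and 4 were lower in KO-labelled skin, with a lowest log2 difference of -11.3. Wound keratinocyte markers had 0 of 8 higher and 3 lower, and gland markers 1 of 8 measured higher and 7 lower. All 6 fibroblast and all 14 skeletal muscle markers were within 2-fold. The part of these cell types in the members' differences was not tested.

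Other genes of the same pathways were followed as lists. Beside each list stand the shares of all measured genes with HDM, 14.5% higher and 12.7% lower in WT and 21.7% and 18.2% in KO-labelled skin. Of 3 measured genes of the heat shock factors and their regulator, 0 passed 2-fold in any comparison, and Hsf1 itself had 292 reads in WT naive, 253 in KO naive, 185 in WT HDM and 375 in KO HDM. HSP90 co-chaperones had 3 of 16 higher (18.8%) and 0 lower with HDM in WT skin (median 0.23). In KO-labelled skin 8 of them were higher (50%) and 1 lower (6.25%), with a median of 0.90. Stip1, which bridges HSP70 and HSP90, was 2.58-fold (2.25 to 2.96) and 4.06-fold (3.52 to 4.71) higher. The immunophilin Fkbp4 was 1.45-fold (1.33 to 1.57) and 4.36-fold (3.98 to 4.78) higher. Fkbp5, a glucocorticoid-responsive immunophilin, stood out in KO naive skin, with 1131 reads against 191 in WT naive, 206 in WT HDM and 310 in KO HDM.

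The CCT chaperonin, which folds actin and tubulin, had 2 of 8 subunits higher in WT (median 0.59) and 3 of 8 in KO-labelled skin (0.90), with 0 lower in either. Cct3 was 2.46-fold (2.23 to 2.72) and 4.79-fold (4.31 to 5.33) higher and Cct8 2.93-fold (2.78 to 3.08) and 2.16-fold (2.05 to 2.28). Prefoldin, which hands clients to CCT, had 0 of 6 higher and 1 lower in WT and 1 higher and 1 lower in KO-labelled skin. Its subunit Pfdn5 was lower in both, by 2.18-fold (2.06 to 2.31) and 2.06-fold (1.96 to 2.17).

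Genes of the unfolded protein response and ER folding had 8 of 23 higher and 0 lower with HDM in WT skin (median 0.61), and 8 higher and 1 lower in KO-labelled skin (0.63). Pdia3, a disulfide isomerase, had 431 reads in WT naive, 110 in KO naive, 2152 in WT HDM and 1322 in KO HDM, or 5.10-fold (4.59 to 5.67) and 12.1-fold (9.92 to 14.8) more with HDM. Calr, the lectin chaperone calreticulin, was 2.70-fold (2.53 to 2.88) and 2.59-fold (2.43 to 2.76) higher, and Hyou1, the exchange factor of BiP, 2.69-fold (2.30 to 3.16) and 4.74-fold (3.89 to 5.80). In KO naive against WT naive skin, 2 were higher and 6 lower, or 8.7% and 26.1%, beside 13.6% and 17.1% of all measured genes. Creld2 had 0 reads in KO naive skin against 134, 218 and 178, and taking 0 reads as up to 3, it was at least 50.4-fold lower there than in WT naive skin. Mitochondrial quality control genes had 2 of 12 higher and 1 lower with HDM in WT skin and 0 higher and 1 lower in KO-labelled skin (medians 0.35 and 0.07). The higher ones in WT skin were the protease genes Afg3l2 (3.24-fold, 2.53 to 4.19) and Clpp (2.05-fold, 1.74 to 2.42).

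A list of 12 genes known as heat-inducible, all of them members, had 2 higher and 0 lower with HDM in WT skin (Hspb1 and Hspd1, median 0.44) and 4 higher and 1 lower in KO-labelled skin (Hspe1, Hsph1, Hspb1 and Hspd1 higher, Bag3 lower, median 0.35). Hspa1a, Hspa1b, Dnajb1, Dnaja1, Dnajb4, Hspa8 and Hsp90aa1 were within 2-fold in both. The list thus had 16.7% higher and 0% lower in WT skin, beside 14.5% and 12.7% of all measured genes. In KO-labelled skin it had 33.3% and 8.33%, beside 21.7% and 18.2%.

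Of all 67 measured members, 38 stayed within 2-fold in every comparison and 29 (43.3%) passed it in at least 1, beside 57.1% of all measured genes. Dnajc5, Dnajc13, Dnajc25 and Dnajc4, of vesicles or of no assigned place, were among those within it, while Hspbap1, a binding partner of Hspb1, had 69, 26, 75 and 117 reads and was 4.51-fold (2.93 to 7.20) higher with HDM in KO-labelled skin. The 13 members below the filter were Dnajc12, Hspb9, Dnajb7, Dnajc22, Dnajc28, Dnajc24, Hspa12b, Dnajc5b, Dnajc6, Dnajc16, Dnajc5g, Dnajb8 and Dnajb13. Among them Dnajb8, Dnajc5b and Dnajc5g had 0 reads in all 4 libraries, which allows up to 3 reads in each. Dnajc24, the unmeasured member nearest the filter at a mean of 4.89, had 84, 1, 45 and 96 reads, low only in KO naive skin. The measured member nearest the filter had a mean of 5.44.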

How the data were processed

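Skin RNA of 4 mouse groups was sequenced from 3′ ends (Lexogen QuantSeq, 500 ng total RNA, per the labels' protocols). The submitters' processing notes name Bowtie2, bedtools and the build mm10, with no version. The authors deposited log2 values per gene. Values of 2 to the power of the deposited log2 value, minus 1, were whole multiples of 0.936 to 1.0778 per library within 0.1 read for 96.2% to 99.3% of values up to 200 reads, so reads were recovered by division, and RPM are these reads per 1000000 of the library. Counting was not stated to use strand, and 31 of the 80 members share exon bases with another gene in GENCODE M21. A total of 35 symbols on 79 lines were left out. Analysis used Python 3.11.15, numpy 2.4.6, pandas 2.3.3 and scipy 1.17.1, and was tested on simulated data. Named genes were 20 core chaperones, up to 10 measured members per direction and comparison past 2-fold, up to 4 genes per pathway list, and members chosen for the text after their values were seen. The members, lists and alternatives were chosen with earlier results of these data known. Lists were made by hand. Alternatives changed the filter, the constant added to x, the scaling and the size rule.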

Additional observations from a re-analysis of the deposited data

Results flagged for a closer look

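The HDM difference had opposite signs in WT and KO-labelled skin for 2 members past 2-fold (2.99% of the measured members, beside 1.76% of all measured genes). Hspa2 had log2 differences of -1.41 in WT and 4.69 in KO-labelled skin, and Dnajb3 had -1.01 and 1.83. With 1 library per group, the difference between genotypes was not tested. Against WT naive skin in place of KO naive skin, the KO-labelled HDM library differed by -0.12 for Hspa2 and 0.03 for Dnajb3. Both genes had their lowest reads in the Egr1 KO naive library (20 for Hspa2 and 26 for Dnajb3).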

How the results depend on the processing

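No paired analysis was possible because each group held 1 library. Without the filter, 20 members were higher with HDM in KO-labelled skin, 13 were lower in KO-labelled than WT naive skin, and 5 were higher and 3 lower in KO-labelled than WT HDM skin. Over all genes in the same order, 5948 of 16476 were higher, 5080 of 15816 were lower, and 1592 were higher and 2291 lower of 17188. With a mean log2 value of at least 7, 3 (WT) and 4 (KO-labelled) were lower with HDM, and 2 were higher and 3 lower in KO-labelled than WT naive skin. Of all 8636 genes at that level, 934 (WT) and 1299 (KO-labelled) were lower with HDM, and 882 were higher and 1090 lower between naive libraries. At 1.5-fold, 21 of the 67 measured members were higher and 11 lower with HDM in WT skin, and 14 were lower in KO-labelled skin. Between naive libraries 15 were higher and 11 lower, and between HDM libraries 5 and 5. Of all 11600 measured genes, 3059 were higher and 2752 lower in WT skin and 3284 lower in KO-labelled skin. Between naive libraries 2865 of them were higher and 3173 lower, and between HDM libraries 1139 and 1417. KO-labelled HDM against WT naive skin, chosen after seeing the data, gave 8 higher, 5 lower and a median of 0.27. It changed the sign of 3 called members (Hspa2, Hspa1l and Dnajb9), each to a value whose interval includes no change. With log2(x + 8), RPM or centring on the median of all genes, every count stayed within 1.5 times its main value. The members' median between naive libraries went from 0.15 to 0.28 in RPM. The members' median between HDM libraries, -0.04, changed sign in RPM (0.06) and with the stricter filter (0.01), and the median of HDM against naive in KO-labelled skin, -0.003, did so without the filter (0.12) and with the stricter one (0.08). Of 152 values of single genes, 21 moved beyond their counting interval in RPM and 6 with centring. Intervals cover counting error only, and differences between animals are not covered.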

Other observations

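Trap1, the mitochondrial HSP90, which the naming rule of the gene set leaves out, had 8814 reads in WT naive, 777 in KO naive, 274 in WT HDM and 338 in KO HDM skin. Dnase1, whose 3′ end meets that of Trap1 on the opposite strand, had the same order of libraries, with 12525, 1358, 169 and 227 reads. The genes (Trap1 at chr16:4039971-4077827, Dnase1 at chr16:4036942-4040024, GRCm38) share 54 exon bases, and without strand the reads of the pair cannot be told apart there.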
